A study of Mus musculus with 6 samples.

Results

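Glutathione, peroxiredoxin, thioredoxin and other antioxidant genes were compared between hepatic stellate cells of Sept4 knockout (KO) and wild-type (WT) mice. The set held each gene whose platform symbol began with Gst, Gpx, Prdx, Txn or Glrx, together with Gclc, Gclm, Gss, Gsr, Cat, Sod1, Sod2, Hmox1, Hmox2, Srxn1, Nfe2l2 and Keap1. This gave 69 of the 16446 gene symbols on the array, each read by 1 probe. Sod3, which the definition also names, was not analysed here. The symbols are those of the array design, and 10 of them have since changed: Txndc1 (now Tmx1), Txndc3 (Nme8), Txndc4 (Erp44), Txndc10 (Tmx3), Txndc13 (Tmx4), Txndc14 (Tmx2), Txnl2 (Glrx3), Txnl4 (Txnl4a), Txnl5 (Txndc17) and Txnl6 (Nxnl1).

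Both groups were hepatic stellate cells, the collagen-producing cells of the liver sinusoid, of mice in which carbon tetrachloride (CCl4) had caused liver cirrhosis. There were 3 arrays of KO mice, which lack Sept4, a filament-forming septin, and 3 arrays of WT mice. The series title places the study around Dkk2, a secreted Wnt pathway regulator. The labels used here give no strain, age, sex or CCl4 dose. They do not say whether the arrays are separate mice, pools or repeat hybridisations, so the p-values measure only the spread between these arrays, which may be technical. No probe is named Sept4, so the deletion itself was not checked.

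Values are log2 signals of a single-colour array, and a difference is KO minus WT. A gene passed when limma's moderated test gave a two-sided adjusted p under 0.05 over all 23473 probes. Signals correlated at 0.981 to 0.982 among KO arrays, at 0.986 among WT arrays and at 0.967 to 0.971 between genotypes. All 14 stellate cell markers looked for were measured, and their summed log2 signal was 113 to 115 on the KO arrays and 106 to 108 on the WT arrays. Of these markers, 8 were higher in KO, 3 were lower and 3 did not pass, so the sum does not stand for a shared direction. The largest rises were those of Lrat at 2.41, Cygb at 2.05 and Colec11 at 1.44. The 3 that were lower were Col1a2 at -1.20, Acta2 at -0.56 and Des at -0.41. The filament gene Gfap, which did not pass, averaged only 2.21 in KO and 1.75 in WT. Because the RNA is from bulk samples, fewer cells of a type and less RNA per cell cannot be told apart.

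Glutathione is a small thiol made from glutamate, cysteine and glycine that glutathione transferases attach to reactive compounds and that glutathione peroxidases use to reduce peroxides. Peroxiredoxins also reduce peroxides and are recharged mainly by thioredoxin, which thioredoxin reductase keeps reduced with NADPH. Superoxide dismutases and catalase act without thiols. Many of these genes are under the transcription factor NRF2 (Nfe2l2), which KEAP1 marks for degradation in resting cells and which binds antioxidant response elements. In liver injury by CCl4, hepatocytes turn the compound into radicals, and oxidants are among the signals known to activate stellate cells.

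Of the 69 genes, 35 were higher in KO cells, 10 were lower and 24 did not pass. Among all probes 42.7% passed, 26.7% as higher and 16.0% as lower, and the antioxidant genes were higher in 50.7% and lower in 14.5%. The median difference was 0.26 over the 69 genes and 0.12 over all probes. The arrays of the genotypes did not overlap for 51 of the 69 genes, with KO above WT for 40 and below it for 11. Among all probes the share was 56.2% in either direction, 34.5% with KO above WT and 21.7% with KO below it. All 45 genes that passed were among these 51. A further adjustment of the arrays to a shared distribution lowered the differences of brighter probes, and cyclic loess moved the median of all probes by -0.10. Either quantile normalisation or loess left 28 antioxidant genes higher and 15 lower, so that 65.1% of the calls were higher in KO, against 77.8% on the deposited values. All probes then gave 22.3% higher and 20.2% lower after quantile normalisation, and 21.9% and 20.7% after loess. For all probes the share of calls that were higher in KO was 52.5% after quantile normalisation, 51.5% after loess and 62.6% on the deposited values.

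Most of the antioxidant genes gave bright probes, since 56 of the 69 lay in the brighter 50% of all probes. Among probes with a mean signal of 8 to 11, where 32 of the genes fell, 20 antioxidant genes were higher and 3 lower, beside 48.6% higher and 21.3% lower for all probes of that range. The median difference there was 0.38 for the antioxidant genes and 0.17 for all probes. At a mean of 11 to 13 the medians were 0.23 for both, with 6 of 10 antioxidant genes higher beside 54.1% of all probes. At 5 to 8 they were 0.0051 and 0.08, with 4 of 9 antioxidant genes higher and 4 lower beside 34.9% and 24.1% of all probes. Over all 69 genes, 38 lay above and 31 below the median of all probes of similar brightness. Without the dimmest 50% of probes, 37 of the 56 remaining genes were higher and 10 lower, against 49.0% and 27.6% of the probes kept. Only 2 of the 13 genes with a mean signal under 5 passed, Gpx5 as higher and Gsto2 as lower.

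**Figure D1:**
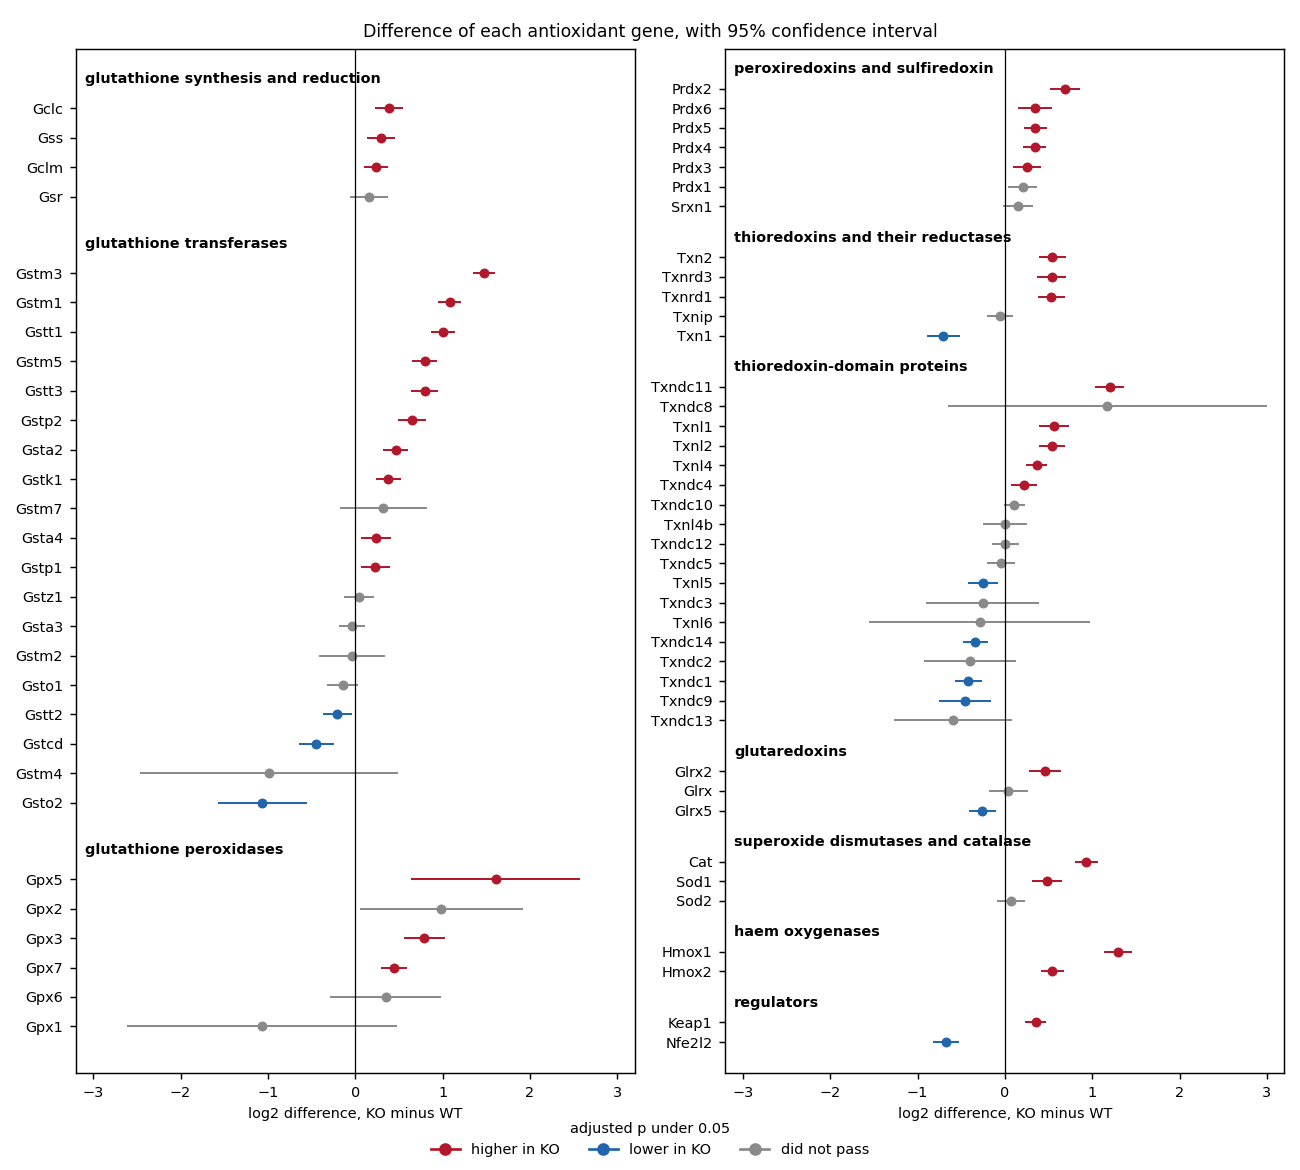
Each point is the KO minus WT difference in log2 signal of 1 antioxidant gene, grouped by role, and the bar is limma's 95% confidence interval (3 KO and 3 WT arrays). Red marks the 35 genes higher in KO, blue the 10 lower and grey the 24 that did not pass, and the widest bars belong to dim probes such as Txndc8 and Gpx1.

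A difference of at least 0.5 was passed by 21 genes, 18 higher and 3 lower, and by 14.5% of all probes as higher and 9.49% as lower. Upstream sequences were examined for the antioxidant response element core TGACNNNGC on both strands, with no other motif searched, in the 250 bases before each RefSeq transcription start on GRCm38.p6. The windows exist for 60 of the 69 genes, and 12 of the 60 hold a match, which is 20.0%, while 11.5% of 27025 genes in the table and 12.99% of its 10000 genes with a platform symbol do. Counted by window, since some genes have several starts, a match is in 14.8% of the 81 windows of the set and 11.01% of those of genes with a platform symbol. By call, the core is present in 5 of 29 genes that were higher, 1 of 9 that were lower and 6 of 22 that did not pass. A match describes the letters only. Of the 21 genes with large differences 19 have a window. The windows below are shown because 4 of these 19 genes hold the core, and Gstm3, the transferase with the largest rise, is shown beside Gstm5 from the same gene cluster. Each is written 5′ to 3′ on the gene's own strand, and capitals mark the core.
Gstm5, chr3:107895604-107895853, plus strand: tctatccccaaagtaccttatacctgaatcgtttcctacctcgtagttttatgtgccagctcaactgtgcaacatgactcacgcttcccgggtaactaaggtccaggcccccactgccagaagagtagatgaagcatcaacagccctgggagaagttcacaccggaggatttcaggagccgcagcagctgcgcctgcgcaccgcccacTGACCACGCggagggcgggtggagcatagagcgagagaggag
Txnrd1, chr10:82858956-82859205, plus strand: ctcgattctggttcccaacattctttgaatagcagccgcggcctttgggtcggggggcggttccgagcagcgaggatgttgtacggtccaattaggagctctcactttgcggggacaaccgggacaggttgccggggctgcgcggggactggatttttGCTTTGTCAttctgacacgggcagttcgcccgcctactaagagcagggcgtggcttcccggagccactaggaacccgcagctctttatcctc
Txndc11, chr16:11134533-11134782, minus strand: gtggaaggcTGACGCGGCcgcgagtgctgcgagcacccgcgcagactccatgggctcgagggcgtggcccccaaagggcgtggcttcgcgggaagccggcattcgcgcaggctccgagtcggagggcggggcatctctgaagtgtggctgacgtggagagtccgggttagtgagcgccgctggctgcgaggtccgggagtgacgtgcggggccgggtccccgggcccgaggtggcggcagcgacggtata
Nfe2l2, chr2:75704664-75704913, minus strand: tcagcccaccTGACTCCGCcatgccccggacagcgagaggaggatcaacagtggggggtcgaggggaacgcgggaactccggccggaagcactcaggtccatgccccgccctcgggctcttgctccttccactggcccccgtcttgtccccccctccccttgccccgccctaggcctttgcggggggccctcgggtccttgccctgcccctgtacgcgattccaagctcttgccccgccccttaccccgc
Gstm3, chr3:107969175-107969424, minus strand: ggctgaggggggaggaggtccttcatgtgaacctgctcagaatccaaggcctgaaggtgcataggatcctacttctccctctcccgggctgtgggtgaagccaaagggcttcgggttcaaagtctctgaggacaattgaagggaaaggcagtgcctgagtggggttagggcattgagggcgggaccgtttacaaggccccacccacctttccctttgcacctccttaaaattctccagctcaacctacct

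The core begins 42 bases before the start in Gstm5, 92 bases before it in Txnrd1, 241 in Txndc11 and 240 in Nfe2l2, and that of Txnrd1 lies on the opposite strand. Txnrd1 and Txndc11 have further start sites in the table whose windows hold no match. The other genes with a match were Gclm, Gstm7, Gsta3, Prdx1, Txndc2, Txndc5, Txndc13 and Sod1. The genes outside the window table were Gclc, Gsr, Gsta4, Gstt2, Hmox1, Prdx6, Txndc10, Txnl1 and Txnl4.

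Glutathione synthesis genes were modestly higher in KO. Gclc, the catalytic subunit of glutamate-cysteine ligase, averaged 9.36 ± 0.01 in KO and 8.98 ± 0.08 in WT (SD, n = 3 each), a difference of 0.39 ± 0.06 (SE, limma adjusted p = 0.00502). Gclm, the subunit that modifies that enzyme, differed by 0.24 (limma adjusted p = 0.0170), and Gss, which adds glycine in the final step, by 0.29 (limma adjusted p = 0.0117). Gclm kept a difference of only 0.05 after quantile normalisation and no longer passed. Gsr, which reduces oxidised glutathione, differed by 0.15 and did not pass (limma adjusted p = 0.197), although every KO array lay above every WT array.

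Glutathione transferases were the most numerous class, with 10 of 19 higher, 3 lower and 6 not passing, and 8 higher and 5 lower after either rescaling. Of all probes, 26.7% were higher and 16.0% lower, and 22.3% and 20.2% after quantile normalisation. At a mean signal of 8 to 11, 48.6% of all probes were higher and 21.3% lower on the deposited values. They attach glutathione to electrophiles, and their subclasses are coded by clusters of related genes whose sequences are close enough for probes to share signal. The probe sequences were not used here, so a split between near-identical members of 1 class is uncertain.

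In the mu class, Gstm3 gave 11.61, 11.61 and 11.59 on the KO arrays, against 10.17, 10.12 and 10.11 on the WT arrays. The difference was 1.47 ± 0.05 (SE), or 2.78-fold, the smallest adjusted p of the 69 genes (limma, 0.000248). Every KO array was above every WT array by a gap many times the spread within either genotype. Gstm1 gave 9.64, 9.58 and 9.63 in KO and 8.58, 8.51 and 8.53 in WT, a difference of 1.08 ± 0.05 or 2.12-fold (limma adjusted p = 0.000377). Gstm5, whose window holds the core, gave 10.91, 10.88 and 10.81 in KO and 10.07, 10.10 and 10.04 in WT, a difference of 0.80 ± 0.05 or 1.74-fold (limma adjusted p = 0.000625). The genotypes were again apart for both genes, and after quantile normalisation the differences of the 3 genes were 1.28, 0.95 and 0.62 for Gstm3, Gstm1 and Gstm5. The other mu genes were dim and their arrays overlapped: the differences were 0.32 for Gstm7, -0.04 for Gstm2 and -0.99 for Gstm4, and none passed.

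On the mouse assembly GRCm38.p6 the mu genes lie in the order Gstm5, Gstm7, Gstm6, Gstm3, Gstm2, Gstm1, Gstm4, with no other coding gene between them. The 3 that were higher therefore did not adjoin each other, and Gstm6 was not analysed here. The theta cluster lies in the order Gstt3, Gstt1, Gstt4, Gstt2.

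In the theta class, Gstt1, which acts on small halogenated compounds, gave 9.47, 9.41 and 9.50 in KO, against 8.47, 8.48 and 8.42 in WT. That was a difference of 1.001 ± 0.05 (limma adjusted p = 0.000469). Gstt3 gave 6.53, 6.47 and 6.54 in KO and 5.80, 5.68 and 5.68 in WT, a difference of 0.79 ± 0.06 (limma adjusted p = 0.000752). For both genes all KO arrays lay above all WT arrays. Gstt2 went the other way, with means of 7.15 in KO and 7.36 in WT and a difference of -0.20 that just passed (limma adjusted p = 0.0467).

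Gstp2, a pi-class transferase, gave 10.86, 10.82 and 10.84 in KO and 10.26, 10.20 and 10.11 in WT, a difference of 0.65 ± 0.06 or 1.57-fold (limma adjusted p = 0.00110). The genotypes did not overlap. Its near-identical neighbour Gstp1 differed by 0.23 (limma adjusted p = 0.0332) and by 0.04 after quantile normalisation, where it did not pass. In the alpha class Gsta2 differed by 0.46 (limma adjusted p = 0.00220), Gsta4, which acts on the lipid peroxidation product 4-hydroxynonenal, by 0.24 (limma adjusted p = 0.0299), and Gsta3 by -0.04 without passing. Gstk1, a peroxisomal and mitochondrial transferase, was 0.38 higher (limma adjusted p = 0.00356).

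The omega class was the only one of the classes with several genes in which none was higher. Gsto2, which reduces dehydroascorbate, gave 4.81, 4.23 and 4.16 in KO and 5.50, 5.34 and 5.56 in WT. The difference was -1.06 ± 0.19 (SE), 2.09-fold lower in KO (limma adjusted p = 0.00952), with every KO array below every WT array. Its neighbour Gsto1 differed by -0.15 without passing (limma adjusted p = 0.134), but after quantile normalisation or loess it passed as lower. Gstcd, named for its transferase-type C-terminal domain, was 5.70 in KO and 6.14 in WT, a difference of -0.45 (limma adjusted p = 0.00755). Gstz1, which takes part in tyrosine breakdown, differed by 0.04 and did not pass.

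**Figure D2:**
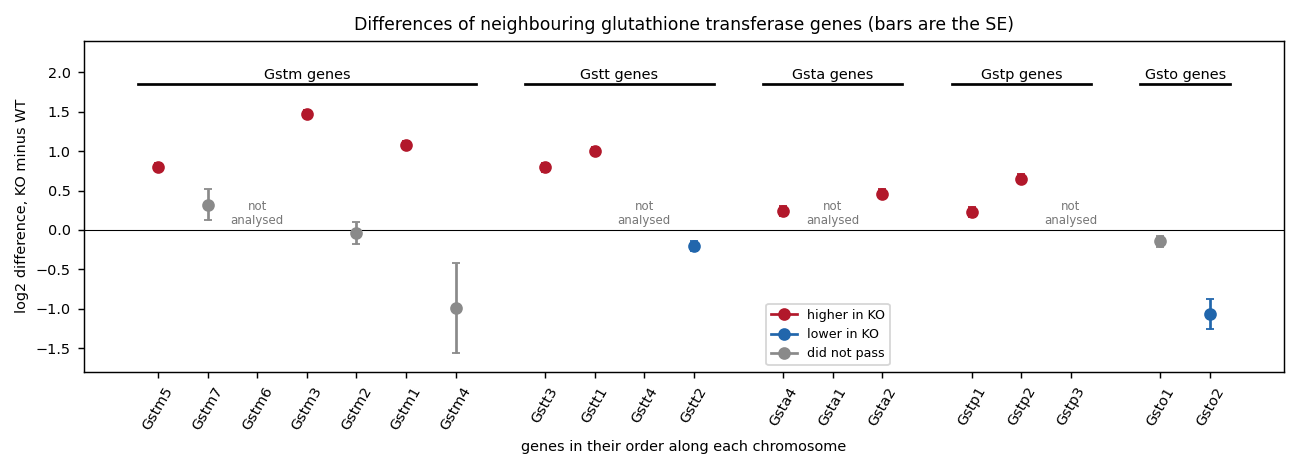
KO minus WT difference in log2 signal, with its SE, for transferase genes in their order along each cluster on GRCm38.p6. In the mu cluster Gstm5, Gstm3 and Gstm1 were higher, Gstm7 and Gstm2 did not pass and Gstm6 was not analysed here. The theta cluster held both Gstt1 at 1.001 and Gstt2 at -0.20.

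Because several transferases are abundant in hepatocytes, the hepatocyte markers are given beside them. Of 11 markers looked for, 10 were measured, with a summed log2 signal of 58.0 to 59.1 in KO and 55.4 to 58.8 in WT. Alb1 (albumin) was 0.88 higher, Ahsg 0.49 and Cps1 0.35 higher, Ttr differed by -0.42, and the other 6 did not pass. None was at the lowest value of an array. Their part in the transferase differences was not tested.

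Of 6 glutathione peroxidases, 3 were higher in KO and 3 did not pass, on the deposited values and after either rescaling. The share of all probes that were higher was 26.7% on the deposited values. Gpx3, the secreted form, gave 6.86, 6.73 and 6.76 in KO and 6.11, 5.84 and 6.03 in WT, a difference of 0.79 ± 0.09 (limma adjusted p = 0.00213). Gpx7, which lies in the endoplasmic reticulum, averaged 8.90 in KO and 8.46 in WT, a difference of 0.44 (limma adjusted p = 0.00260). Both genes had KO and WT arrays apart.

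The remaining peroxidase probes were near background. Gpx5, known as an epididymal enzyme, gave 2.23, 3.07 and 2.80 in KO and 1.74, 0.95 and 0.59 in WT, a difference of 1.61 ± 0.37 (limma adjusted p = 0.0215). The arrays did not overlap, but adding a linear offset to the signals reduced the Gpx5 difference to 0.97, and without KO replicate 2, KO replicate 3, WT replicate 2 or WT replicate 3 it no longer passed (limma adjusted p = 0.0589 to 0.0706). Gpx2 differed by 0.98 and did not pass (limma adjusted p = 0.0835). Gpx1, the main cytosolic enzyme, gave 1.25, 0.31 and 2.53 in KO and 2.20, 2.84 and 2.23 in WT. Those levels are at the bottom of the array, 1 of them at its lowest value, so the Gpx1 probe gave only a bound and no direction.

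**Figure D3:**
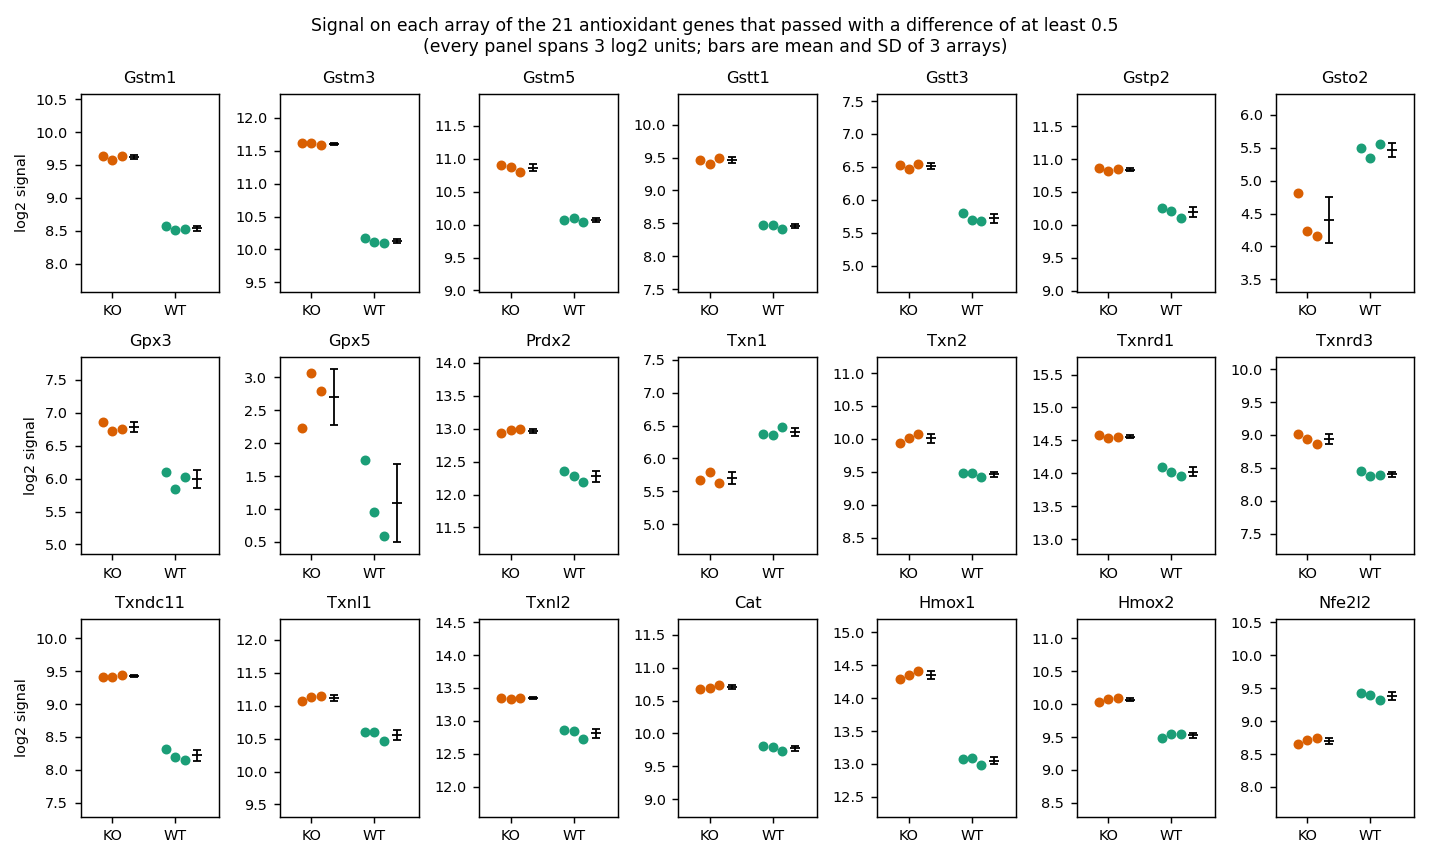
Log2 signal of the 21 antioxidant genes that passed with a difference of at least 0.5, with 1 point per array the KO arrays left of the WT arrays, and the mean and SD of 3 arrays as a bar beside them. No gene had overlapping genotypes, and the arrays of 1 genotype lay closest together for the bright genes and widest apart for Gpx5 and Gsto2.

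On the deposited values all 6 peroxiredoxins and sulfiredoxin (Srxn1) had every KO array above every WT array, as had 34.5% of all probes. Of the 6 peroxiredoxins, 5 passed as higher, beside 26.7% of all probes, but only 2 passed as higher after quantile normalisation and after loess. Prdx2, a cytosolic peroxiredoxin, gave 12.93, 12.97 and 12.99 in KO and 12.36, 12.28 and 12.19 in WT. The difference was 0.69 ± 0.06 or 1.61-fold (limma adjusted p = 0.00112), and 0.48 after quantile normalisation. Prdx4, the secretory pathway form, differed by 0.34 (limma adjusted p = 0.00412) and was the other that passed after rescaling. Prdx5 and Prdx6 differed by 0.35 each (limma adjusted p = 0.00384 and 0.0141), and the mitochondrial Prdx3 by 0.26 (limma adjusted p = 0.0201), and all of these lost the call after quantile normalisation or loess. 

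Prdx1 was among the brightest probes, at 15.59 ± 0.07 in KO and 15.39 ± 0.06 in WT (SD, n = 3 each), a difference of 0.20 that did not pass (limma adjusted p = 0.0507). After quantile normalisation the Prdx1 difference turned to -0.24 and passed as lower (limma adjusted p = 0.00589), so no direction is given for it. Srxn1, which repairs overoxidised peroxiredoxin, differed by 0.15 and did not pass (limma adjusted p = 0.120). Prdx2 and catalase are also red-cell proteins. Of 10 erythroid markers looked for, 4 were measured and none passed, with a summed log2 signal of 13.8 to 15.3 in KO and 13.5 to 14.6 in WT.

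The thioredoxin system was split. Txn1, the cytosolic thioredoxin, gave 5.67, 5.80 and 5.63 in KO and 6.37, 6.36 and 6.48 in WT, a difference of -0.70 ± 0.07 (limma adjusted p = 0.00145). The Txn1 signal comes from 1 probe and lay not far above the array median of 5.02, and how well that probe reports the transcript was not tested. Txn2, the mitochondrial thioredoxin, gave 9.94, 10.01 and 10.07 in KO and 9.48, 9.48 and 9.42 in WT, a difference of 0.54 ± 0.06 (limma adjusted p = 0.00164). The arrays of the genotypes were apart for both on the deposited values, with KO below WT for Txn1 and above it for Txn2, and both genes also passed in these directions after quantile normalisation and after loess.

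The reductases were higher. Txnrd1, the cytosolic reductase, gave 14.58, 14.54 and 14.55 in KO and 14.09, 14.02 and 13.96 in WT, a difference of 0.53 ± 0.05 (limma adjusted p = 0.00158) that was 0.27 after quantile normalisation. Txnrd3, a reductase best known from testis, gave 9.01, 8.94 and 8.86 in KO and 8.45, 8.37 and 8.39 in WT, a difference of 0.53 ± 0.06 (limma adjusted p = 0.00199). No array of either genotype overlapped the other. Txnip, which binds and inhibits thioredoxin, differed by -0.05 and did not pass (limma adjusted p = 0.477), but after quantile normalisation its difference was -0.23 and passed (limma adjusted p = 0.00970).

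Thioredoxin-domain proteins went both ways, with 5 of 18 higher, 4 lower and 9 not passing and a median difference of -0.02. These counts are close to the shares of all probes, 26.7% higher and 16.0% lower. After either rescaling 4 of the 18 were higher and 5 lower. Txndc11, a membrane protein of the endoplasmic reticulum, gave 9.41, 9.42 and 9.44 in KO and 8.32, 8.20 and 8.14 in WT. The difference was 1.203 ± 0.06 or 2.302-fold (limma adjusted p = 0.000469), with the 3 KO arrays within a narrow band above all WT arrays. Txnl1, a thioredoxin linked to the proteasome, gave 11.07, 11.13 and 11.15 in KO and 10.60, 10.61 and 10.47 in WT, a difference of 0.56 ± 0.06 (limma adjusted p = 0.00193). Txnl2 (Glrx3), a cytosolic iron-sulphur protein, gave 13.35, 13.33 and 13.35 in KO and 12.86, 12.84 and 12.73 in WT, a difference of 0.54 ± 0.05 (limma adjusted p = 0.00156). Both had the genotypes apart.

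Of the others that were higher, Txnl4 (Txnl4a), a spliceosome component, differed by 0.36 (limma adjusted p = 0.00236) and Txndc4 (Erp44), which retains client proteins in the early secretory pathway, by 0.22 (limma adjusted p = 0.0264). The 4 that were lower were Txndc9 at -0.45, Txndc1 (Tmx1) at -0.42, Txndc14 (Tmx2) at -0.34 and Txnl5 (Txndc17) at -0.25. Tmx1 and Tmx2 are membrane proteins of the endoplasmic reticulum, and their relatives Txndc10 (Tmx3) and Txndc13 (Tmx4) did not pass, at 0.11 and -0.59. Among 9 proteins of the set listed as of the endoplasmic reticulum, 4 were higher, 2 lower and 3 did not pass. After either rescaling 3 were higher and 3 lower. Txndc13 (Tmx4) was not counted in that list. Among 6 proteins listed as mitochondrial, 4 were higher, 1 lower and 1 did not pass. After quantile normalisation 2 were higher and 1 lower, and after loess 2 were higher and 2 lower. Gstk1, which is also peroxisomal, was not counted in that list. For both lists, 26.7% of all probes were higher and 16.0% lower on the deposited values.

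Glutaredoxins, which remove glutathione from proteins or carry iron-sulphur clusters, differed among themselves. The mitochondrial Glrx2 averaged 10.56 in KO and 10.11 in WT, a difference of 0.46 (limma adjusted p = 0.00496). Glrx5, the mitochondrial iron-sulphur carrier, averaged 12.12 in KO and 12.38 in WT, a difference of -0.26 (limma adjusted p = 0.0163). The cytosolic Glrx differed by 0.04 and did not pass.

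Catalase and cytosolic superoxide dismutase were higher in KO. Cat, which breaks down hydrogen peroxide in peroxisomes, gave 10.68, 10.70 and 10.74 in KO and 9.80, 9.79 and 9.73 in WT, a difference of 0.93 ± 0.05 or 1.91-fold (limma adjusted p = 0.000483). Every KO array lay above every WT array. Sod1, the copper and zinc dismutase, averaged 8.60 ± 0.06 in KO and 8.12 ± 0.06 in WT (SD, n = 3 each), a difference of 0.48 ± 0.06 (limma adjusted p = 0.00303). Sod2, the mitochondrial manganese enzyme, differed by 0.07 and did not pass (limma adjusted p = 0.404), and after loess its difference was -0.17 and passed as lower (limma adjusted p = 0.0327).

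Both haem oxygenases, which open the haem ring to release iron, were higher. Hmox1, the inducible form, gave 14.29, 14.35 and 14.41 in KO and 13.08, 13.08 and 12.99 in WT, a difference of 1.30 ± 0.06 or 2.46-fold (limma adjusted p = 0.000377), and 1.05 after quantile normalisation. Hmox2, the constitutive form, gave 10.04, 10.07 and 10.09 in KO and 9.48, 9.55 and 9.54 in WT, a difference of 0.54 ± 0.05 (limma adjusted p = 0.00109). The genotypes did not overlap for either gene. Macrophages of the liver also express Hmox1 strongly. Of 14 Kupffer cell and macrophage markers looked for, 12 were measured: 5 were lower in KO, among them Emr1 at -1.27 and C1qc at -1.32, and 2 were higher, Clec4f at 0.52 and Cd5l at 0.49. The summed log2 signal of that list was 80.5 to 83.3 in KO and 85.6 to 86.9 in WT, and its part in the Hmox1 difference was not tested.

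The regulators moved in opposite directions. Nfe2l2, which encodes NRF2, gave 8.66, 8.71 and 8.74 in KO and 9.43, 9.40 and 9.31 in WT. The difference was -0.68 ± 0.055 (SE), 1.60-fold lower in KO (limma adjusted p = 0.000945), with every KO array below every WT array, and it was -0.81 after quantile normalisation. Keap1 averaged 8.66 ± 0.02 in KO and 8.31 ± 0.02 in WT (SD, n = 3 each), a difference of 0.35 ± 0.04 (limma adjusted p = 0.00269). These are transcript signals, and NRF2 activity is set largely at the protein level, which was not measured.

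**Figure D4:**
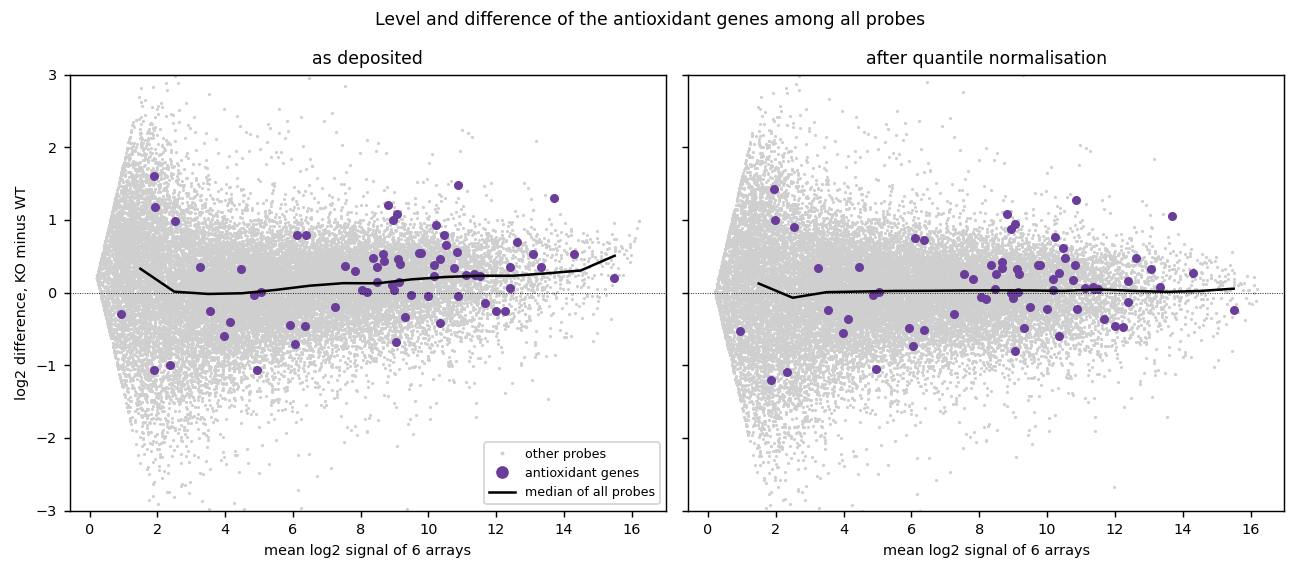
KO minus WT difference in log2 signal against the mean log2 signal of the 6 arrays, as deposited (left) and after quantile normalisation (right), for the antioxidant genes (purple) over other probes (grey), with the difference axis cut at 3 in either direction. The black line is the median of all probes by signal, which climbs over the brighter probes on the left and stays near zero on the right, and the median of the antioxidant genes is 0.26 on the left and 0.08 on the right.

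Calls near the threshold changed when single arrays were left out. Of the 45 genes that passed, 10 lost the call when some single array was left out, all in the same direction as before. Gstt2 lost it without any 1 of the 6 arrays (limma adjusted p = 0.0645 to 0.124). Without KO replicate 2, KO replicate 3, WT replicate 1, WT replicate 2 or WT replicate 3, Gsta4 (limma adjusted p = 0.0671 to 0.0926), Gstp1 (0.0670 to 0.101) and Txndc4 (0.0547 to 0.0787) lost it. Txnl5 did so without any array but WT replicate 3 (limma adjusted p = 0.0706 to 0.0927).

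Prdx3 lost the call without KO replicate 2, KO replicate 3, WT replicate 1 or WT replicate 3 (limma adjusted p = 0.0528 to 0.0683), and Txndc9 without any 1 of the WT arrays (0.0670 to 0.0798). Glrx5 lost it without KO replicate 2, WT replicate 1 or WT replicate 2 (limma adjusted p = 0.0516 to 0.0630), and Gclm without WT replicate 2 or WT replicate 3 (0.0591 and 0.0530). In the other direction, Gpx2 passed as higher without KO replicate 2 (limma adjusted p = 0.0258) and Prdx1 without KO replicate 1 (0.0459). Without KO replicate 3, Txndc13 passed as lower at -0.82 (limma adjusted p = 0.0444). The Gpx1 fit also went past the threshold without that array (limma adjusted p = 0.0348), but its signals at the bottom of the array are only bounds and give no direction.

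Other genes linked to NRF2 were measured for 29 of 32 listed outside the set. Of these, 15 were higher in KO, 3 lower and 11 did not pass, with a median difference of 0.21. Among all probes 26.7% were higher and 16.0% lower, for this list and those that follow. Brighter probes were called more often, with 48.6% higher and 21.3% lower at a mean signal of 8 to 11. The lists were not matched to all probes for brightness, so a share above 26.7% does not set a list apart. After quantile normalisation 11 of the genes linked to NRF2 were higher and 9 lower. The 4 with the largest differences were the conjugate exporter Abcc2 at 1.54 ± 0.15, the microsomal epoxide hydrolase Ephx1 at 1.30 ± 0.05, the aldehyde oxidase Aox1 at 1.18 ± 0.07 and the pentose phosphate enzyme Tkt at 1.06 ± 0.04 (SE; limma adjusted p = 0.00150, 0.000293, 0.000582 and 0.000343). The 3 that were lower, named after their values were seen, were the exporter Abcc4 at -0.88 and the small MAF partners of NRF2, Maff at -0.78 and Mafg at -0.23. The list holds regulators as well as targets of NRF2, and the regulators Bach1 at 0.23 and Cul3 at 0.39 were among the 15 higher. Its counts are therefore not counts of targets alone.

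A list of haem and iron genes was measured for 13 of 15, and 8 were higher, 0 lower and 5 did not pass, a median difference of 0.30. After quantile normalisation 6 were higher and 2 lower. The 8 include the haem-forming enzymes Fech and Alas1 and the regulator Bach1, so they are not all genes of haem breakdown or iron storage. The largest differences were those of the ferritin heavy chain Fth1 at 0.98, the biliverdin reductase Blvrb at 0.82, the haem-forming enzyme Fech at 0.80 and the iron exporter Slc40a1 at 0.74 (limma adjusted p = 0.000629, 0.000513, 0.000753 and 0.000644). Fth1 is at the top of the arrays, and its difference was 0.04 after quantile normalisation and 0.62 after loess.

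Enzymes that supply NADPH, from which both reductases draw, did not share a direction: of 14 measured among 15, 6 were higher, 4 lower and 4 did not pass, with a median of -0.09. Besides Tkt, H6pd of the endoplasmic reticulum was higher by 0.94 and the mitochondrial Idh2 by 0.91, whereas the folate enzyme Aldh1l1 was 1.25 in KO and 3.06 in WT, a difference of -1.82 (limma adjusted p = 0.00777). The KO signals of Aldh1l1 lie near the bottom of the array, and adding a linear offset reduced its difference to -1.18. After quantile normalisation 5 of this list were higher and 7 lower.

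Genes that break down or export glutathione and its conjugates were measured for 20 of 22, and 8 were higher, 4 lower and 8 did not pass. Ggtla1 (Ggt5), which cleaves glutathione outside the cell, was 1.02 higher, and Oplah, which returns 5-oxoproline to glutamate, was 0.87 higher (limma adjusted p = 0.0214 and 0.000778). The exporter Abcc4 at -0.88 and the glutathione-dependent prostaglandin synthase Ptges at -0.81 were lower (limma adjusted p = 0.0354 for Ptges). Ggtla1, at 4.45 in KO and 3.43 in WT, and Ptges, at 3.24 and 4.06, were dim. A linear offset reduced their differences to 0.88 and -0.69.

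**Figure D5:**
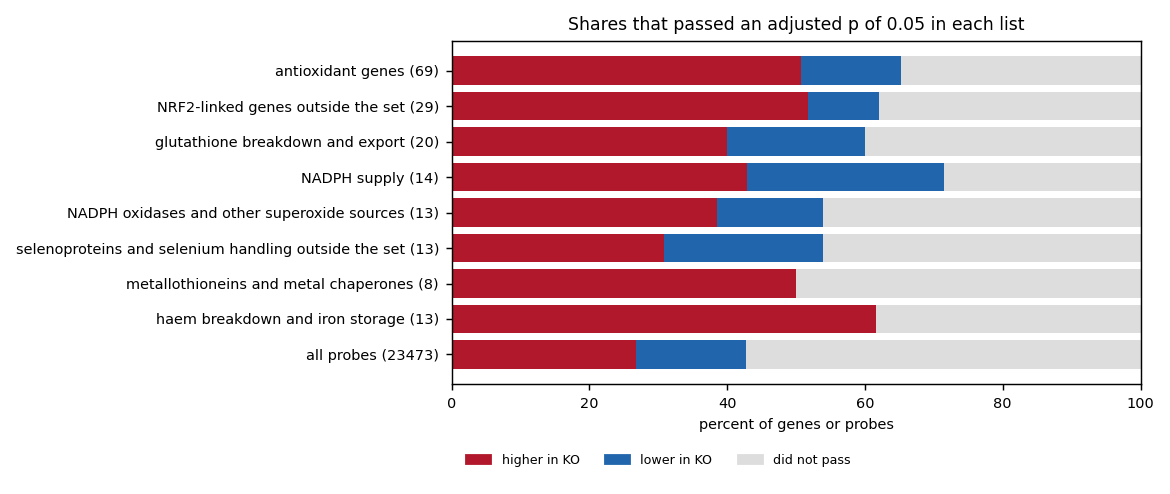
Share of measured genes higher (red) and lower (blue) in KO, in percent, for the antioxidant genes, for other gene lists and for all probes, with the number measured in brackets and grey for those that did not pass. The antioxidant genes stand at 50.7% higher and 14.5% lower, beside 26.7% and 16.0% of all probes. No list was matched to all probes for brightness.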

How the data were processed

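Total RNA of hepatic stellate cells was hybridised to single-colour Cy5 arrays, 3 of KO and 3 of WT mice. Per the labels, the authors had quantile normalised the deposited values. These are read as log2 because of their range, since no source names the log base. Only the array medians were equal. The labels' dye protocol mentions a microRNA kit and tumours, unlike the stated design, so groups come from the cell type and genotype labels. Background correction and scanner software: not given in the sources used here. On each array 940 to 1255 probes shared the lowest value, and such a level is only a bound.

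Of the 23473 probes, 16631 carried 1 platform symbol, 6842 none and 0 several. All 69 symbols of the set matched a RefSeq gene table on GRCm38.p6, used for names and gene order, and the upstream sequences are RefSeq's on that build. Differences came from limma 3.58.1 (lmFit, eBayes; R 4.3.3) on the deposited log2 values, without covariates, two-sided, with Benjamini-Hochberg adjustment over all probes, 4 residual degrees of freedom and 1.11 from the prior. The number of arrays limits the precision. An exact permutation test of 3 against 3 cannot go below 0.1 and was not used. The fit was tested on simulated data. Figures were drawn with matplotlib 3.10.9.

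The genes and lists were chosen with earlier results of these data known. All 69 genes could be named. Array values are given for those that passed with a difference of at least 0.5, and up to 4 genes by size for each other list. The alternatives were quantile normalisation, cyclic loess, 2 filters on dim probes (25% and 50%), an offset on the linear scale set to the 10th percentile, a variance prior with trend and robust fitting, a replicate block, and each array left out. No columns were left unused.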

Additional observations from a re-analysis of the deposited data

How the results depend on the processing

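Of the 69 genes, 32 passed in the same direction on the deposited values and in all 13 alternatives, 27 higher and 5 lower, and no gene that passed on the deposited values changed direction in any of them. Of the 21 with large differences, 19 did so, the exceptions being Gpx5 and Gsto2, which was left out with the dimmest 50% of probes. The median difference of the set, 0.26, moved to 0.078 after quantile normalisation, to 0.050 after loess and to 0.32 without the dimmest 50% of probes, and was 0.23 to 0.28 when 1 array was left out. Leaving out 1 array gave 29 to 36 genes higher and 6 to 10 lower, with 6 lower without WT replicate 1 or WT replicate 2. After quantile normalisation Gstz1 turned to -0.065, Prdx1 to -0.24, Txndc10 to -0.0054, Txndc12 to -0.091, Glrx to -0.082 and Sod2 to -0.13. After loess they were Gstz1 -0.076, Prdx1 -0.13, Txndc10 -0.031, Txndc12 -0.12, Glrx -0.10 and Sod2 -0.17. When 1 array was left out, differences spanned zero for Gstm2 (-0.15 to 0.055), Txnl4b (-0.060 to 0.078), Txndc12 (-0.030 to 0.028), Gstz1 (-0.0091 to 0.066) and Glrx (-0.036 to 0.091), and none of these passed. The cause was not tested. With the replicate number as a block, 28 genes were higher and 7 lower. Same-numbered KO and WT arrays showed no shared deviation over all probes, where their deviations from the group means correlated at 0.0077, -0.0013 and -0.0020. Such values, on normalised signals of which many are dim, cannot settle whether those arrays were paired. The mean of a gene's probes could give no other value, since each gene had 1 probe. Rescaled counts for the gene lists were chosen after seeing the data. Levels near the lowest value of an array, as for Gpx1, Txndc8 and Txnl6, limit what can be said of dim genes.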

Other observations

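Selenium, metal and NADPH oxidase genes were also measured, beside 26.7% higher and 16.0% lower among all probes, a share not matched for brightness. Of 13 selenoproteins and selenium-handling genes measured among 22 listed outside the set, 4 were higher in KO, 3 lower and 6 did not pass. The thyroid hormone deiodinase Dio1 averaged 0.64 in KO and 2.04 in WT, a difference of -1.40 (limma adjusted p = 0.0497). Of its KO arrays 2 were at the lowest value, so the Dio1 level there is only a bound, and with a linear offset the difference was -0.73 and did not pass (limma adjusted p = 0.0530). Sephs2, which makes selenophosphate, differed by -0.45 (limma adjusted p = 0.00496). Next by size were Selk (now Selenok) at 0.42 and 1300018J18Rik (Selenoo) at 0.37, both higher in KO (limma adjusted p = 0.00613 and 0.00446). Of 8 metallothioneins and metal chaperones, 4 were higher, 0 were lower and 4 did not pass, while 4 were higher and 1 lower after quantile normalisation. The metal-sensing factor Mtf1 was 0.65 higher, the copper chaperones Atox1 and Ccs 0.57 and 0.38 higher, and Mt1 0.50 higher (limma adjusted p = 0.00952, 0.000960, 0.0160 and 0.00219). Of 13 genes of NADPH oxidases, their regulators and other oxidant sources measured among 16, 5 were higher, 2 lower and 6 did not pass. After quantile normalisation 3 were higher and 2 lower. The 5 include the regulators Rac1, Rac2 and Poldip2, so they are not counts of superoxide sources alone. Duox1 was 0.74 higher and the xanthine-oxidising enzyme Xdh 0.69 higher (limma adjusted p = 0.00133 and 0.00129). Cybb, the phagocyte oxidase subunit, differed by -0.51 and Noxa1, an oxidase activator, by -1.11 (limma adjusted p = 0.00413 and 0.0159). Noxa1 was dim, at 2.85 in KO and 3.96 in WT, and a linear offset reduced its difference to -0.89.

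Markers of further liver cell types were summed in the same way. Sinusoidal endothelial markers, 8 of 9 measured, summed to 39.8 to 41.7 in KO and 39.7 to 41.1 in WT, with 2 higher and 0 lower. Cholangiocyte markers, 5 of 6 measured, summed to 21.7 to 22.0 in KO and 20.0 to 23.0 in WT, with 0 higher and 1 lower. T and B lymphocyte markers, 8 of 9 measured, summed to 29.0 to 31.0 in KO and 26.2 to 26.8 in WT, with 1 higher and 2 lower, and 2 of the 8 were at the lowest value on some array. Their part in the antioxidant differences was not tested.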
